A study of Homo sapiens with 6 samples.

Results

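The 6 genes described here, ITGAM, LILRB4, NCF1, CTSG, BPI and GFI1, belong to the maturation of myeloid blood cells. They were taken by name from the authors' deposited table, in which each of them matched 1 of 6831 rows. MOLM-13 is an established line of acute myeloid leukaemia cells, labelled WT, and was kept for 24 h in 50 nM DEG-35 or in the solvent DMSO. DEG-35 is named in the series as a degrader of the transcription factor IKZF2 (Helios) and of the kinase CK1α. Each condition had 3 RNA-seq libraries, and the labels do not say whether these came from separate cultures. No library values are in the table, so the level of a gene in each sample, the depth of each library and the presence of the defining markers of the cell type were not analysed here.

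Myeloid progenitors mature into neutrophils, monocytes and macrophages under transcription factors such as PU.1, the C/EBP family and GFI1. In the bone marrow, proteins of the primary (azurophil) granules are made at the promyelocyte stage, while many integrins, Fc receptors and subunits of the oxidase that makes superoxide accumulate later. Acute myeloid leukaemia cells are halted along this path. MOLM-13 is one such line with monocytic features and a KMT2A fusion.

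Of the 6 genes, 5 were higher and 1 was lower with DEG-35. NCF1, an oxidase subunit, was 3.10-fold higher (95% interval 2.61 to 3.68), and ITGAM, the integrin chain CD11b, 2.77-fold (2.43 to 3.15) by the authors' deposited table. The inhibitory receptor gene LILRB4 was 2.36-fold higher (2.11 to 2.64) and BPI, which encodes an antibacterial granule protein, 2.06-fold (1.67 to 2.54) by the authors' deposited table. CTSG, the gene of the granule protease cathepsin G, rose less, 1.33-fold (1.23 to 1.43), and the repressor gene GFI1 fell to 80.9% of the DMSO level in the authors' deposited table. Intervals were computed from standard errors (SE) that each deposited fold change and p-value imply. Being in the table means an adjusted p below 0.05, so all 6 passed by the way they were chosen. Over the 15064 genes that the adjusted p-values imply were tested, 45.3% passed, 21.4% higher and 24.0% lower, and 4.23% were higher by at least 1 on the log2 scale, as NCF1, ITGAM, LILRB4 and BPI were. Directions read the table as DEG-35 over DMSO, which its header does not state. In bulk RNA, more cells of a mature kind and more RNA per cell cannot be told apart.

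**Figure D1:**
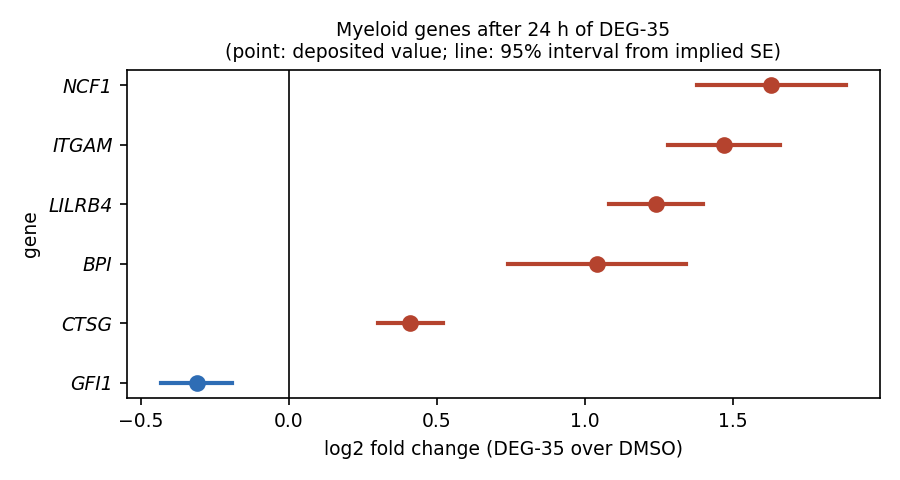
Log2 fold change (DEG-35 over DMSO) of each of the 6 genes from the authors' deposited table (points), with 95% intervals from the implied SE (lines). NCF1, ITGAM, LILRB4 and BPI lie between 1.04 and 1.63, CTSG at 0.41 and GFI1 at -0.31.

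Between genes next to each other in size of change, the order was clear only in its lower part. In the authors' deposited table the log2 fold changes ran from NCF1 at 1.63 ± 0.127 (implied SE) through ITGAM at 1.47 ± 0.0956 and LILRB4 at 1.24 ± 0.0820 to BPI at 1.04 ± 0.155. Each of these overlapped the next in its 95% interval, but NCF1 (1.38 to 1.88) and BPI (0.74 to 1.34) did not overlap. CTSG at 0.41 ± 0.0568 and GFI1 at -0.31 ± 0.0614 overlapped neither each other nor BPI in the authors' deposited table. CTSG and GFI1 were among the most precisely measured genes, at percentiles 2.09 and 6.72 of the implied SE over the table, and NCF1 and BPI among the less precise, at 74.2 and 80.9. So BPI had a larger fold change than CTSG and, with adjusted p = 1.58e-10 against 5.42e-12 by the authors' deposited table, a weaker p. By size, 6.93% of all higher genes had a larger rise than NCF1 and 60.6% a larger rise than CTSG, and 73.3% of all lower genes a larger fall than GFI1.

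The promoters of the genes are printed because 5 of the 6 moved the same way and because PU.1, the ETS-family factor of myeloid cells, is known to act through purine-rich sites close to the start of such genes. RefSeq promoter windows (GRCh38.p14) were found for 5 genes, all but BPI, and for GFI1 the outermost of its 3 start sites was used. Each sequence gives the 250 bases before the start on the strand of the gene, and capitals mark the PU.1 core GAGGAA on either strand.
ITGAM (chr16:31259725-31259974, plus strand): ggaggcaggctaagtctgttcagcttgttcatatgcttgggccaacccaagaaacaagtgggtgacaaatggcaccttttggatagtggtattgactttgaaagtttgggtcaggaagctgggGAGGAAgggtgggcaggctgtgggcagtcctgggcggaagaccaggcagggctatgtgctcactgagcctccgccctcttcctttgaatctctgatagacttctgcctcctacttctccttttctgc
LILRB4 (chr19:54662735-54662984, plus strand): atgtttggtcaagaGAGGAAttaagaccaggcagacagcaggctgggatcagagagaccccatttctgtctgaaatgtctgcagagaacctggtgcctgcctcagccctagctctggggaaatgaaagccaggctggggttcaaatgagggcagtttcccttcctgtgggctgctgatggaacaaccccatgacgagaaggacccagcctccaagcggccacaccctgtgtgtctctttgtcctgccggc
NCF1 (chr7:74773761-74774010, plus strand): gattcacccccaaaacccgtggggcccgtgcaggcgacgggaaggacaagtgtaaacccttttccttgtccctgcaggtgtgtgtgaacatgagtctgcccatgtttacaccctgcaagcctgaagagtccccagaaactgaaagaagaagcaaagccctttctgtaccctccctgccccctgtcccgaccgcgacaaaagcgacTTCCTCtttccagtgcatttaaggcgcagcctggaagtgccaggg
CTSG (chr14:24576251-24576500, minus strand): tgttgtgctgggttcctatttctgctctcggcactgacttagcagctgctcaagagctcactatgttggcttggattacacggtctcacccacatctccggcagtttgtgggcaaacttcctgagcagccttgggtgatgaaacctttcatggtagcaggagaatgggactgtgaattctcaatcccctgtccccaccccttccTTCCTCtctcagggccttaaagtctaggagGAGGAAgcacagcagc
GFI1 (chr1:92486926-92487175, minus strand): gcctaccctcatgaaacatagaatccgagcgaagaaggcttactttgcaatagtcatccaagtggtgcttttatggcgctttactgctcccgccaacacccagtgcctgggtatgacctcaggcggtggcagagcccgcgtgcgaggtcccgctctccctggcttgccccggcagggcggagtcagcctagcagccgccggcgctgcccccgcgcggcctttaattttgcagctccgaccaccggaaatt

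All 4 higher genes with a window held the core GAGGAA, and the outermost GFI1 window did not, though the window of another of its start sites did. In NCF1 it lies on the other strand, 45 to 40 bases before the start, and CTSG has a match on the other strand at 46 to 41 and another on its own strand at 16 to 11. ITGAM has its match at 127 to 122 and LILRB4 at 236 to 231 bases before the start. Of 35116 RefSeq windows of this length, 23.6% hold the core, as do 24.2% of the windows of all genes that were higher. The core GGGAA, which factors of the Ikaros family such as IKZF2 bind, was in 2 of the 5 windows, NCF1 and LILRB4, against 59.0% of all windows. CACCC, a core of KLF family sites, was in all 5, against 54.7%. No match was found in these 5 windows for 6 other letter patterns or for the p53 decamer (5.57% of all windows). The 6 were the GFI1 cores AAATC (29.9% of all windows), TAAATC (7.12%) and AATCA (31.4%), the C/EBP patterns TTNNGNAAT (9.85%) and TTGCNNAA (9.05%), and the RUNX site TGTGGT (11.0%). Both strands were searched, TAAATC contains AAATC, and a match describes letters, not binding.

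**Figure D2:**
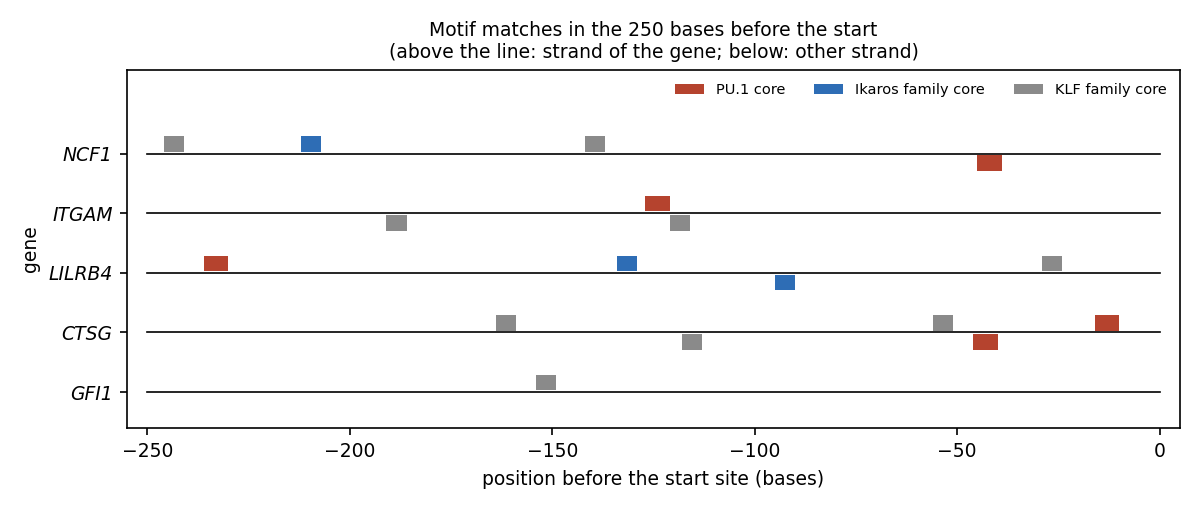
Matches of the PU.1 core, the Ikaros family core and the KLF family core in the 250 bases before the start of 5 genes, by distance from the start in bases, above the line on the strand of the gene and below it on the other. NCF1 and CTSG have the PU.1 core GAGGAA within 50 bases of the start, and ITGAM and LILRB4 farther away. The outermost GFI1 window, shown here, has none, though the window of another GFI1 start site has one.

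ITGAM encodes the alpha chain CD11b, which pairs with the ITGB2 chain to form the complement receptor that phagocytes use for adhesion and for taking up coated particles. Its log2 fold change of 1.47 came with an adjusted p = 1.46e-51 by the authors' deposited table. The neighbouring gene ITGAX, the related chain CD11c, rose by 1.66 ± 0.199, and ITGAL, the chain CD11a of lymphocyte and myeloid adhesion, by 1.10 ± 0.0570 in the authors' deposited table. Their shared partner ITGB2 was not listed, which means that it did not pass or was not tested. Nor was ITGAD, the remaining chain of that pairing. Of 13 integrin chain genes 6 passed, 5 higher and 1 lower, where 45.3% of all genes tested passed. Their median log2 was 1.18 against -0.19 over the whole table, each median being over listed genes. ITGA6, a laminin receptor chain, at 1.26 ± 0.0997 and ITGB7, of gut-homing leukocytes, at 0.92 ± 0.112 were the other higher chains in the authors' deposited table. ITGAE, which binds E-cadherin, was the lower one, at -0.59 ± 0.111 in the authors' deposited table. Among the 4 activators and ligands in the same list, FERMT3, an integrin activator, rose by 0.29 ± 0.108, ICAM1 by 0.48 ± 0.0798 and ICAM3 by 0.74 ± 0.137 in the authors' deposited table, and TLN1 was not listed.

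Other receptors for complement and antibody moved with ITGAM in part. Of 22 genes, ITGAM and ITGAX among them, 8 passed (36.4%, against 45.3% over all genes tested), 7 of them higher (median log2 1.21). Without ITGAM, 7 passed, 6 of them higher. FCGR2A, an activating receptor for IgG, rose by 0.87 ± 0.0982, and FCER2, the low-affinity IgE receptor CD23, by 1.40 ± 0.199 in the authors' deposited table. The lower gene was FCGR1B, at -0.44 ± 0.192 (adjusted p = 0.0483) in the authors' deposited table, whose near-identical copies can share its reads. C5AR2, a receptor for the complement fragment C5a, at 1.92 ± 0.680 and CD59, an inhibitor of complement lysis, at 1.03 ± 0.186 were also higher in the authors' deposited table; C5AR2 is named after its value had been seen. The complement receptor genes CR1, C3AR1 and C5AR1 were among the 14 not listed.

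LILRB4 encodes an inhibitory receptor of monocytes and dendritic cells, whose cytoplasmic motifs recruit the phosphatases SHP-1 and SHP-2. Its change of 1.24 came with an adjusted p = 5.33e-50 by the authors' deposited table. Of the 11 LILR genes, which lie together in a cluster, 3 were listed (27.3%, against 45.3% over all genes tested), all higher. The inhibitory LILRB1 stood at 0.95 ± 0.269 and the activating LILRA1 at 0.63 ± 0.195 in the authors' deposited table, both less precise than LILRB4. LILRB2, LILRB3 and the other 6 were not listed. PTPN6 (SHP-1) rose by 0.62 ± 0.0701 and PTPN11 (SHP-2) fell slightly, by 0.17 ± 0.0631 (adjusted p = 0.0207), in the authors' deposited table. Among 28 other paired receptors, adaptors and effectors, 17 passed (60.7%), 15 higher and 2 lower (median log2 0.67). By adjusted p, the first higher ones besides PTPN6 were LAIR1, an inhibitory collagen receptor, at 0.86 ± 0.0561, the sialic acid receptor gene CD33 at 0.67 ± 0.0749 and TREM2, a lipid-sensing receptor of macrophages, at 1.99 ± 0.237 in the authors' deposited table. SYK, the kinase downstream of activating receptors, was lower, at -0.17 ± 0.0611 in the authors' deposited table. Of the 2 lower genes, PTPN11 and SYK, 0 passed at an adjusted p of 0.01.

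NCF1 encodes a cytosolic organiser subunit of the phagocyte NADPH oxidase, which on stimulation joins other cytosolic subunits such as NCF4 and a RAC protein at the membrane subunits CYBA and CYBB. Its rise of 1.63 came with an adjusted p = 3.03e-36 by the authors' deposited table. NCF4, which binds membrane lipid, rose by 0.36 ± 0.112 and the GTPase gene RAC2 of blood cells by 0.57 ± 0.0724, while the widely expressed RAC1 fell by 0.21 ± 0.0667 in the authors' deposited table. CYBA and CYBB, the membrane subunits, and CYBC1, their chaperone, were not listed.

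Reads of NCF1 can also match its copies. The human genome holds the pseudogenes NCF1B and NCF1C, which differ from NCF1 at the start of an exon in the coding part. The reference transcripts of GENCODE release 29 show this stretch, with capitals on the bases where the lines differ in length.
NCF1: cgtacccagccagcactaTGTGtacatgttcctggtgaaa
NCF1B: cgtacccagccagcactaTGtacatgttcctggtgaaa
NCF1C: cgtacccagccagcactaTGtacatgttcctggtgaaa

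Over 1396 aligned positions of their main transcripts, NCF1C and NCF1 were 99.4% identical outside gaps. Of all windows of 50 bases in protein-coding NCF1 transcripts, 70.9% occurred letter for letter in transcripts of NCF1B or NCF1C, and of windows of 100 bases 51.2% did. NCF1B stood at 1.65 ± 0.338 (adjusted p = 5.49e-06) and NCF1C at 1.64 ± 0.191 (adjusted p = 1.08e-16) in the authors' deposited table, next to 1.63 for NCF1. The 3 log2 fold changes differed by less than any of their implied SEs. These copies were looked up after the values of NCF1 had been seen. The sources used here do not say how reads matching several genes were counted, so how much of each value comes from the other copies was not tested. For the other genes the same windows were mostly their own: at 50 bases ITGAM shared 0.412% with ITGAX, LILRB4 1.19% with 6 other LILR genes, BPI 7.94% with 2 overlapping noncoding genes, and CTSG and GFI1 0%. At 100 bases BPI shared 3.76% and ITGAM and LILRB4 0%.

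**Figure D3:**
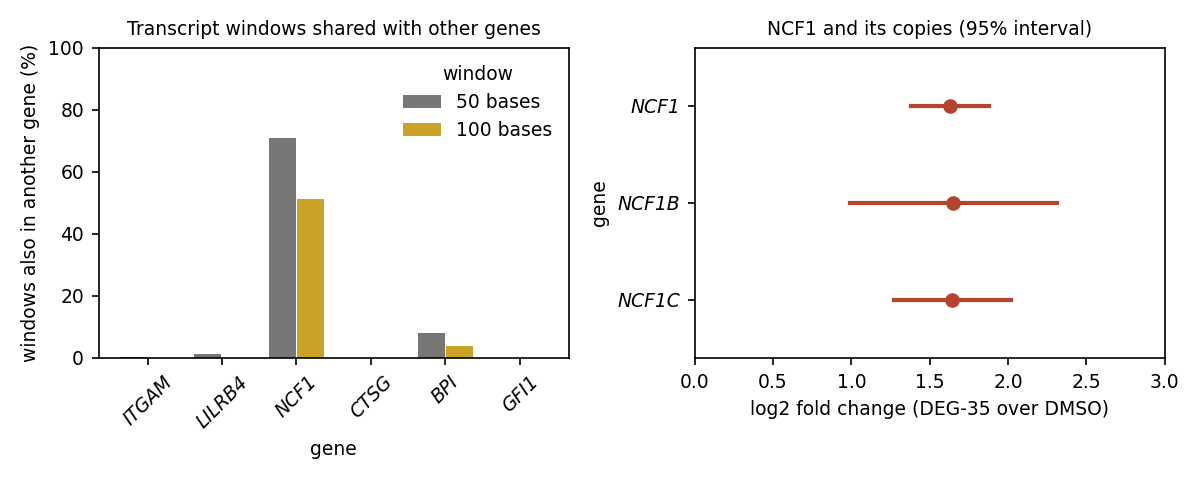
Left, share (%) of 50-base and 100-base windows of each gene's protein-coding transcripts that also occur in transcripts of another gene. Right, log2 fold change (DEG-35 over DMSO) of NCF1, NCF1B and NCF1C with 95% intervals from the implied SE: NCF1 shares most of its 50-base windows (70.9%), and the 3 values lie between 1.63 and 1.65.

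CTSG and BPI encode contents of the azurophil granule, the first granule that developing neutrophils make, and CTSG is also made in monocytes. Cathepsin G is a serine protease that digests microbes and matrix. BPI binds lipopolysaccharide and damages the membrane of Gram-negative bacteria. Of 20 azurophil granule genes 10 passed (50.0%, against 45.3% over all genes tested), 7 higher and 3 lower (median log2 0.35). BPI rose the most of them. Besides CTSG, the higher ones in the authors' deposited table were SRGN, the proteoglycan core that packs granule proteins, at 0.61 ± 0.0649, LYZ (lysozyme) at 0.28 ± 0.0588, RNASE2 at 0.20 ± 0.0661, and the lysosomal enzyme genes HEXA at 0.65 ± 0.0730 and MAN2B1 at 0.57 ± 0.0871. MPO, the myeloperoxidase that defines this granule, was lower at -0.36 ± 0.0965 in the authors' deposited table. The glucuronidase gene GUSB at -0.69 ± 0.0763 and CTSC, whose product activates cathepsin G and its relatives, at -0.19 ± 0.0600 were also lower in the authors' deposited table. The related protease genes ELANE, PRTN3, AZU1 and PRSS57 were not listed, so of 5 neutrophil serine proteases CTSG alone was. The other 6 genes not listed were those of the alpha-defensins DEFA1, DEFA1B, DEFA3 and DEFA4, MS4A3 and RNASE3.

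Genes of later granules hardly appeared in the table. Of 21 genes of specific and gelatinase granules 2 were listed, or 9.52%, against the 45.3% over all genes tested. CHI3L1, a chitinase-like protein, was higher at 0.82 ± 0.0580 and SLPI, an inhibitor of neutrophil proteases, lower at -0.73 ± 0.259 in the authors' deposited table. LTF, CAMP, LCN2, MMP8 and MMP9, which define these granules, were not listed, and whether they were expressed at all cannot be read from this. Of 13 protease inhibitor genes, some of them for inhibitors of cysteine proteases, 7 were listed, 6 of them higher. Of the 11 listed genes in the wider list of granule proteases and inhibitors, 4 had an implied SE above 0.2. SERPINB1, a cytosolic inhibitor of elastase and cathepsin G, rose by 1.03 ± 0.0675 in the authors' deposited table, and the cysteine protease inhibitor gene CST3 by 0.36 ± 0.0802. Of 15 cathepsin genes 7 were listed, 4 higher and 3 lower: CTSO stood at 1.41 ± 0.116, CTSS at 0.43 ± 0.0760 and CTSL at 0.44 ± 0.146, against CTSB at -0.15 ± 0.0577 and CTSV at -2.69 ± 0.880 in the authors' deposited table. BPI had little company among genes of lipopolysaccharide recognition and its own fold family. Of 18 such genes TICAM2, an adaptor of TLR4, was the only other one listed, at -1.98 ± 0.227 in the authors' deposited table, and LBP, CD14, TLR4 and LY96 were not.

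GFI1 encodes a zinc-finger repressor that steers progenitors toward neutrophils and away from monocytes, and recruits the demethylase KDM1A with RCOR1 and histone deacetylases. Its fall of 0.31 ± 0.0614 came with an adjusted p = 3.33e-06 by the authors' deposited table. Of 11 corepressor and partner genes 6 passed, all lower (median log2 -0.31, against -0.19 over the whole table). Over all genes tested, 24.0% were lower and 21.4% higher. RCOR1 stood at -0.42 ± 0.0703, HDAC2 at -0.39 ± 0.0638, SIN3A at -0.28 ± 0.0682 and PIAS3 at -0.27 ± 0.0840 in the authors' deposited table. KDM1A at -0.24 ± 0.0614 and HDAC1 at -0.34 ± 0.0662, named after their values had been seen, completed them in the authors' deposited table. Of 19 genes reported elsewhere as repressed by GFI1, 11 passed (5 higher, 6 lower; median log2 -0.21), the median being near the -0.19 of the whole table. CSF1R, the receptor that drives monocyte growth, rose by 1.57 ± 0.147 and IRF8, a monocyte factor, by 0.46 ± 0.0535 in the authors' deposited table. CDKN1A at 1.91 ± 0.0579 and BAX at 1.19 ± 0.0838 were higher as well, and both are also targets of p53, by the authors' deposited table. ETS1 at -0.50 ± 0.0700 and CDKN1B at -0.42 ± 0.0753 were lower in the authors' deposited table, and ELANE, CSF1 and ID2 were not listed.

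Myeloid transcription factors moved in both directions, with log2 fold changes between -0.84 and 0.83 among those listed. Of 40 genes 17 passed (42.5%, against 45.3% over all genes tested), 11 higher and 6 lower (median log2 0.15). LMO2 at 0.83 ± 0.0624, FOS at 0.78 ± 0.0939 and NFE2 at 0.55 ± 0.0713 led the higher ones in the authors' deposited table. CEBPG at -0.49 ± 0.0621, KLF6 at -0.45 ± 0.102 and the differentiation inhibitor gene ID1 at -0.84 ± 0.199 were lower in the authors' deposited table. SPI1, which encodes PU.1, and CEBPB, CEBPD, CEBPE and KLF4 were not listed.

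Listed genes of the neutrophil surface and of monocytes and macrophages were nearly all higher. The second list is not of surface genes alone, as it also holds genes such as LYZ and CTSS. Of 18 neutrophil surface genes 5 passed, all higher (median log2 1.15). SELPLG, a selectin ligand, rose by 1.32 ± 0.0873, CSF3R, the receptor for G-CSF, by 1.15 ± 0.0849 and PTAFR, the receptor for platelet-activating factor, by 1.13 ± 0.162 in the authors' deposited table. Of 42 monocyte and macrophage genes 17 passed, 16 higher (median log2 0.79). MS4A7 at 1.63 ± 0.0803, MS4A6A at 1.16 ± 0.0950, the scavenger receptor gene CD68 at 0.76 ± 0.0700 and CD4 at 0.61 ± 0.0561 were first by adjusted p within that list in the authors' deposited table. CD14, S100A8 and S100A9 were not listed. Over the 9 myeloid lists together, with each gene counted once, 84 of 203 genes were listed (41.4%), 69 higher and 15 lower. Higher genes thus made up 82.1% of the listed myeloid genes and 47.1% of the table. No test was made of this difference, since the lists were drawn up with earlier results of these data known.

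**Figure D4:**
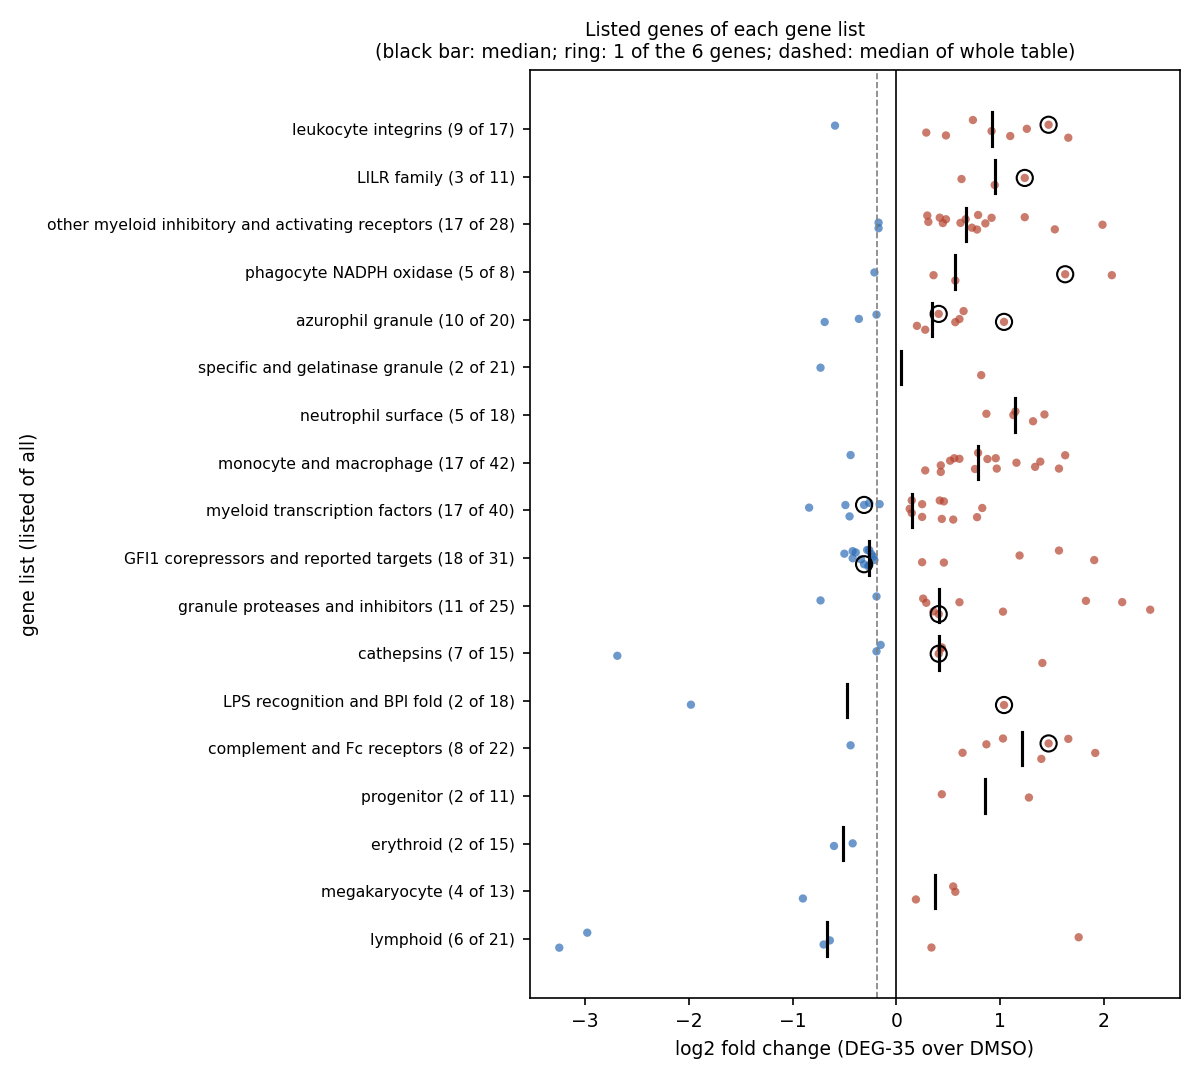
Log2 fold change (DEG-35 over DMSO) of every listed gene in 18 gene lists (points, red higher and blue lower), with the median of each list (bar), the 6 genes (rings) and the median of the whole table (dashed line, -0.19). Neutrophil surface genes and monocyte and macrophage genes lie mostly above 0, and azurophil granule and transcription factor genes on both sides.

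Markers of other blood cells were mostly not listed, while 45.3% of all genes tested were. This was not particular to them. Of lymphoid genes 28.6% and of megakaryocyte genes 30.8% were listed, against 27.8% of neutrophil surface genes and 41.4% over the 9 myeloid lists. Of 15 genes of eosinophils, basophils and mast cells 0 were listed. Of 15 erythroid genes EPOR, at -0.60 ± 0.136, and TFRC, at -0.42 ± 0.0616, were lower in the authors' deposited table, and the globin genes were not listed. Of 13 megakaryocyte genes 4 were listed, 3 of them higher, and of 21 lymphoid genes 6, of which 4 were lower. With an implied SE of at most 0.2, 2 of these 4 lower lymphoid genes remained. IL7R, a lymphoid cytokine receptor, at 1.76 ± 0.122 and PAX5, a B cell factor, at -0.70 ± 0.0727 were first by adjusted p among lymphoid genes in the authors' deposited table. Of 11 progenitor genes CD38 at 1.28 ± 0.139 and FLT3 at 0.44 ± 0.0656 were higher in the authors' deposited table, and CD34 and KIT were not listed. Summed levels of these lists could not be had, and their part in the changes of the 6 genes was not tested.

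The genes next to the 6 were looked up because position had played no part in choosing them. Among the 3 nearest genes on each side in the RefSeq gene table, 9 of 36 were listed, 8 of them higher. Over all genes tested 45.3% were listed, and 47.1% of the listed were higher. Of the 36 neighbours 17 are protein-coding, and how many of the 36 were tested is unknown. ITGAX, LILRB1 and GZMH are relatives of the gene they lie beside. The granzyme gene GZMH, next to CTSG, stood at 2.18 ± 0.708 in the authors' deposited table, and CMA1 and GZMB on the same cluster were not listed. Around NCF1, which lies in a duplicated stretch of chromosome 7, GTF2IRD2 rose by 1.42 ± 0.294, STAG3L2 by 0.52 ± 0.0912 and GTF2I by 0.25 ± 0.0716 in the authors' deposited table. KIAA1755 near BPI rose by 1.81 ± 0.293, LOC101927045 near CTSG by 0.54 ± 0.201, and GLMN near GFI1 dropped by 0.36 ± 0.0871 in the authors' deposited table. LBP, the neighbour and relative of BPI, was not listed.

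**Figure D5:**
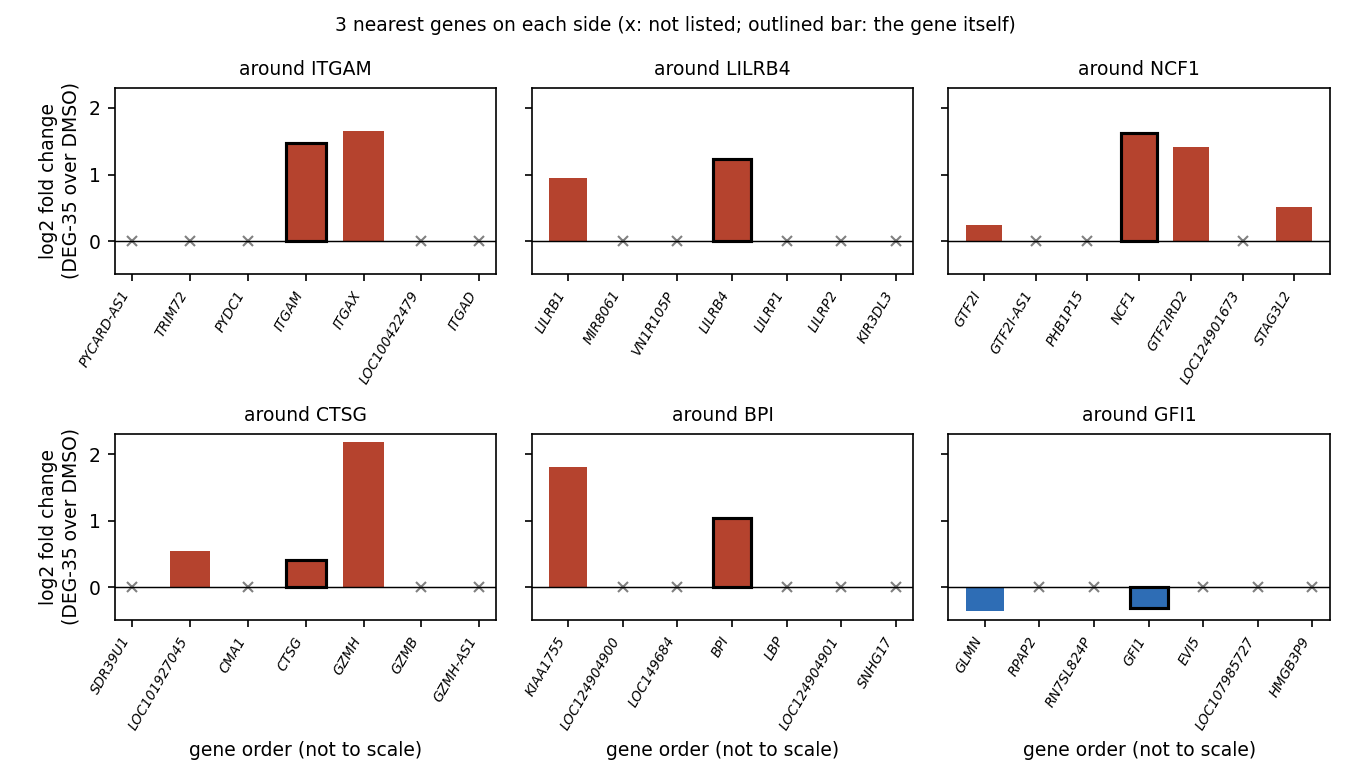
Log2 fold change (DEG-35 over DMSO) of each of the 6 genes (outlined bar) and of its 3 nearest genes on each side, in genome order and not to scale; crosses mark genes that are not listed. Listed neighbours were 9 of 36, with 3 around NCF1 and a lower one, GLMN, near GFI1.

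Nearness in log2 fold change, over this 1 comparison and without regard to the SE, picked other genes of the lists for each of the 6. The nearest to ITGAM was CXCR2 (1.43), to LILRB4 CD300LB (1.24), to NCF1 MS4A7 (1.63), to CTSG ETV6 (0.42), to BPI CD59 (1.03) and to GFI1 SIN3A (-0.28) in the authors' deposited table. CXCR2 lay 0.0341 from ITGAM with an implied SE of 0.251, and CD300LB 0.00525 from LILRB4 with one of 0.395. Such distances are far smaller than the SEs.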

How the data were processed

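RNA-seq was run on 3 DMSO and 3 DEG-35 libraries of MOLM-13 cells, grouped by title. The submitters' processing notes name hg19, STAR, featureCounts and DESeq2, without versions or options. The data are the authors' comparison: per the file headers, p-values, raw and adjusted, stand beside each gene's log2 fold change. Depth is unknown. All adjusted p-values in the deposited table lie below 0.05, and the adjusted p-values equal a Benjamini-Hochberg adjustment over 15064 genes within 0.1% for all 2789 genes with a p above 1e-04.

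Single genes could not be tested anew. An implied SE, which is the size of the log2 value over the normal quantile belonging to its two-sided p, gave 95% intervals and assumes a Wald test. The 6 genes and 19 lists were chosen with earlier results of these data known. Lists were matched by symbol, with RefSeq synonyms (GRCh38.p14), and described by counts without a test. Genes named are the 6, from each list up to 4 per direction with the smallest adjusted p, all listed integrin, LILR, oxidase (some items are not reported here) and azurophil genes, listed neighbours (3 on each side) and the nearest by log2 fold change. Roles within lists were separated after the values were seen. Transcript windows came from GENCODE release 29, with either strand compared. Scripts used SciPy 1.17.1, NumPy 2.4.6, Biopython 1.88, pandas 2.3.3 and Matplotlib 3.10.9 under Python 3.11.15.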

Additional observations from a re-analysis of the deposited data

How the results depend on the processing

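All 6 genes passed at an adjusted p of 0.01, with Bonferroni adjustment over 15064 tests and with an implied SE of at most 0.2. With a minimum absolute log2 fold change of 1, 4 remained, without CTSG (0.41) and GFI1 (-0.31). The authors' scaling is unknown, so all log2 fold changes were shifted by 0.3 either way, and p was recomputed from the implied SE and set against the largest p of the table, 0.0227. Shifted down, CTSG came to 0.11, and shifted up, GFI1 came to -0.006; neither passed then, and none of the 6 changed direction. Of the 84 listed genes of the 9 myeloid lists, 20 reached an absolute log2 fold change of 1, 20 higher and 0 lower. The 15 lower genes became 9 at an adjusted p of 0.01 and 4 with Bonferroni adjustment, beside 63 and 53 higher ones. For the shifts, the 84 genes were counted by sign alone and not tested again, so values near 0 are included: 24 were then below 0 with the shift down and 9 with the shift up. Counted the same way, the 13 lower genes among GFI1, its corepressors and its reported targets became 6 with the shift up. The shift was applied to listed genes only. No paired analysis was possible because the deposited table holds no values per library; for the same reason no library could be left out. Unknown depth limits what can be said of genes that are not listed.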

Other observations

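Some receptor genes of monocytes and macrophages that the text above does not describe were higher; they were chosen after their values were seen. TYROBP, the signalling adaptor of TREM2, stood at 1.53 ± 0.212 in the authors' deposited table, beside TREM2 at 1.99 ± 0.237. The chemokine receptor genes CCR1 at 0.96 ± 0.119, CCR2 at 0.97 ± 0.109 and CX3CR1 at 0.79 ± 0.0916 lay close together in the authors' deposited table. CD86, a costimulatory ligand of antigen-presenting cells, was higher at 1.39 ± 0.230 in the authors' deposited table. CXCR2, a neutrophil chemokine receptor, stood at 1.43 ± 0.251 in the authors' deposited table, and CXCR1, a related receptor, was not listed.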
